A study of Mus musculus with 18 samples.

Results

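The 36 genes described here encode the peroxisome proliferator-activated receptors (PPARs), genes known as their targets, the enzymes of fatty acid oxidation and the perilipins that coat lipid droplets. They were chosen by gene symbol alone, with no measured value in the rule, out of the 55401 genes listed for each tissue, and each symbol was found once in both tissues. The series measured RNA in the skin and the lung of mice in a model of atopic dermatitis (AD), in which disease on the skin can be followed by disease in the airways. La-Cer mice received 4 nmol calcipotriol (MC903, a vitamin D analogue), 50 µg ovalbumin (an allergen from egg white) and an emollient with a linoleic acid-ceramide for 28 days, AD mice received both agents without the emollient, and control mice received no treatment. All mice were wild-type females, their age is not given in the sources used here, and each of the 6 combinations of tissue and group had 3 libraries. The labels number them as replicates and do not say whether each came from a mouse of its own, so the p-values measure the spread between these libraries. The dose of the emollient is not given either, and there was no group with a vehicle or with the emollient alone.

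PPARs are nuclear receptors that bind DNA as partners of the retinoid X receptors and are switched on by fatty acids and their derivatives, among them oxidised forms of linoleic acid. PPARα is known for driving fatty acid oxidation in liver and muscle, PPARγ for driving fat storage in adipocytes and in the oil-producing cells of the sebaceous gland, and PPARδ for its broad expression and its role in keratinocytes and barrier repair. Oxidation of a fatty acid runs through uptake and activation with coenzyme A, import into the mitochondrion on carnitine, and repeated rounds of dehydrogenation, hydration, a second dehydrogenation and cleavage by a thiolase.

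Reads were counted per gene, and levels are given as CPM (counts scaled to library size) after TMM scaling, which sets the libraries of a tissue on a common scale. Libraries held 13472283 to 18647521 counts in skin and 15904723 to 19338972 in lung, and the 36 genes together took 0.323% to 0.673% of the counts in skin and 0.301% to 0.667% in lung. All 36 genes passed the filter on low counts in both tissues. The tissue labels matched their markers: summed basal keratinocyte markers reached 7303 to 29898 CPM in skin and 19.3 to 75.6 CPM in lung, and summed alveolar type 2 cell markers 45.1 to 83.8 CPM in skin and 21658 to 45924 CPM in lung. Some libraries stood apart from the others of their group. Skin control library 3 held 66984 CPM of summed skeletal muscle markers, where control libraries 1 and 2 held 19221 and 19143 CPM. It held 439 CPM of summed hair follicle markers, where they held 24854 and 10458 CPM. Lung control library 1 was the highest of the 9 lung libraries for 23 of the 36 genes, against 27.9% of all genes tested in lung. Lung AD library 1 held 146 CPM of summed cardiac muscle markers, where the other lung libraries held 1130.4 to 3698 CPM, and skin La-Cer library 1 resembled the AD libraries in its sebaceous gland markers. The main results that rest on these libraries are given with and without them.

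The genes spanned a wide range of expression. Per length of transcript, in the authors' FPKM, the highest of the 36 in control skin were Ucp2 (136 ± 75.6 FPKM, SD, n = 3), which encodes a mitochondrial uncoupling protein, Fabp5 (133 ± 80.9 FPKM), which encodes the fatty acid binding protein of keratinocytes, and Acaa2 (127 ± 13.9 FPKM), which encodes the mitochondrial thiolase. These levels overlapped within their spread. In control lung the highest level was that of Cd36 (393 ± 49.8 FPKM), the fatty acid translocase of capillary endothelium and macrophages, followed by Fabp3 (164 ± 65.5 FPKM), Acaa2 (163 ± 92.7 FPKM) and Acadl (152 ± 100.4 FPKM), which overlapped with each other. Ppara was the lowest in both tissues, at 1.04 ± 0.825 FPKM in control skin and 0.700 ± 0.157 FPKM in control lung, with Ppargc1a next to it or near it at 1.41 ± 0.656 and 0.853 ± 0.124 FPKM.

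In skin, 1 of the 36 genes passed the test between AD and control mice, and it was higher. This was Plin2, the perilipin that covers lipid droplets in most cell types. Among all 16956 genes tested, 6.86% passed in this comparison, 3.42% as higher and 3.44% as lower. Plin2 (chr4:86648386-86670060, minus strand, GRCm38) had 631, 131 and 156 CPM in La-Cer skin, 421, 424 and 506 CPM in AD skin and 95.1, 90.3 and 97.7 CPM in control skin. The 3 AD libraries lay close together and far above the 3 control libraries, while La-Cer library 1 was above every AD library and La-Cer libraries 2 and 3 lay between the AD and control levels. Plin2 rose to 450 ± 48.4 CPM in AD skin, against 94.4 ± 3.75 CPM in control skin (SD, n = 3), a log2 fold change of 2.25 ± 0.55 (SE) with an edgeR adjusted p of 0.0440. The call was near the threshold: leaving out any 1 of the AD or control libraries kept the fold change between 2.16 and 2.34 and moved the adjusted p to between 0.0616 and 0.169, and it was 0.0707 once each library's trend on length and GC was taken out. In bulk tissue, a change in the number of cells of a type and a change in RNA per cell cannot be told apart.

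The RefSeq table (GRCm38.p6) holds the promoter of Plin2, which is shown because this was the called gene, with the window before its start in the direction of transcription (chr4:86670060-86670309, minus strand). Capitals mark the hexamer TGACCT, which reads AGGTCA on the opposite strand, the hexamer that nuclear receptors of this family bind.
Plin2: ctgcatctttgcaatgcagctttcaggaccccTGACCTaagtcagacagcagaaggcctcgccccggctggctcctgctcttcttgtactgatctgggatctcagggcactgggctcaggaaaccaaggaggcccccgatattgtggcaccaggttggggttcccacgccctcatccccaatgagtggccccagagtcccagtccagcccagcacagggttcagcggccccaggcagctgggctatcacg
PPAR and its partner bind AGGTCA repeated in the same direction with 1 base between the copies. On both strands of the 250 bases before the start, this full repeat was found in 0.0335% of 32851 promoters of the table, and the looser repeat of AGGNCA in 0.338%. Neither was found in the 35 promoters listed for 31 of the 36 genes. A single AGGTCA, which is also part of the full repeat, was found in 14.0% of all promoters and in 9 of the 35, belonging to Acadm, Acadvl, Cd36, Cpt1a, Plin2, Plin5, Pparg and Ucp3. No site farther away was searched, and these matches are letters in a window, not measured binding.

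**Figure D1:**
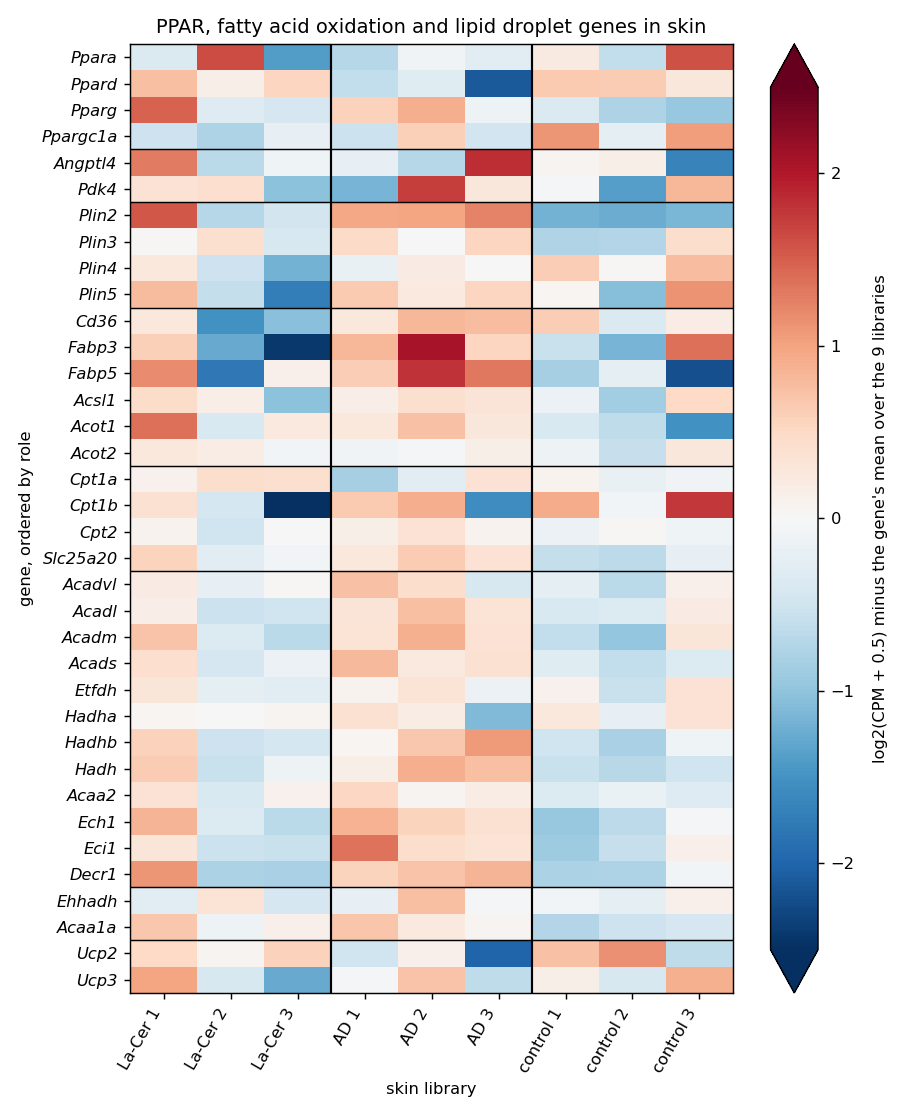
Each row is 1 of the 36 genes, ordered by role and divided by lines, and each column 1 skin library of the La-Cer, AD and control groups. Colour is log2(CPM + 0.5) minus the gene's mean over the 9 libraries, with red above and blue below the mean. Most oxidation genes are red in the AD libraries and in La-Cer library 1, and Ppard is blue in the AD libraries.

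The other 35 genes did not pass between AD and control skin, but many lay on the same side. Of the 36 genes, 27 had a positive fold change, with a median log2 of 0.58 against -0.05 over all genes tested. Leaving out 1 AD or control library at a time, 24 to 28 were positive. The median then lay between 0.39 (without control library 2) and 0.86 (without control library 3). With all libraries, the AD libraries lay wholly above the control libraries in 16 of the 36 genes, where 16.3% of all genes tested did so. In 1, Ppard, they lay wholly below, where 18.2% did. At an unadjusted p under 0.05, 12 of the genes were higher and 1 was lower in AD skin, against 14.3% and 14.6% of all genes tested. DESeq2 called 9 of the 36: Plin2, Fabp5, Hadh, Acads, Slc25a20, Acaa1a, Eci1 and Hadhb as higher and Ppard as lower, where it called 18.3% of all genes.

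Among the receptors, the levels of Ppard and Pparg lay on opposite sides of control. Ppard had 60.6, 39.4 and 51.9 CPM in La-Cer skin, 22.9, 28.8 and 7.88 CPM in AD skin and 56.7, 55.9 and 43.6 CPM in control skin. All 3 AD libraries were below all 6 others, and the La-Cer and control libraries overlapped. The log2 fold change of Ppard was -1.39 ± 0.42 in AD against control skin (edgeR adjusted p = 0.0682) and 1.35 ± 0.42 in La-Cer against AD skin (edgeR adjusted p = 0.168). Ppard has a long transcript (7514 exonic bases), and once the trend on length and GC was taken out the AD value was -0.95 with an edgeR adjusted p of 0.164. Pparg had 50.2, 14.0 and 12.99 CPM in La-Cer skin, 26.4, 33.6 and 16.1 CPM in AD skin and 13.7, 10.2 and 8.91 CPM in control skin. The AD libraries of Pparg lay above the control libraries and La-Cer library 1 above all others (log2 1.21 ± 0.53 in AD against control, edgeR adjusted p = 0.158). Ppara was scarce, with 1.63, 7.96 and 0.539 CPM in La-Cer skin, 1.16, 2.08 and 1.73 CPM in AD skin and 2.71, 1.29 and 7.79 CPM in control skin, and the groups overlapped. Ppargc1a, the coactivator PGC-1α that promotes mitochondrial gene expression, had 3.34, 2.68 and 4.26 CPM in La-Cer skin, 3.24, 7.71 and 3.40 CPM in AD skin and 11.3, 4.19 and 10.8 CPM in control skin, again with overlap between all groups.

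The classical targets of PPAR in fasting tissue did not separate the groups in skin. Angptl4, a secreted inhibitor of lipoprotein lipase, had 60.3, 15.01 and 22.5 CPM in La-Cer skin, 21.0, 14.7 and 88.7 CPM in AD skin and 25.5, 27.1 and 7.29 CPM in control skin. Pdk4, the kinase that shuts off pyruvate oxidation, had 38.1, 39.6 and 14.3 CPM in La-Cer skin, 12.9, 99.9 and 36.1 CPM in AD skin and 28.7, 11.1 and 53.3 CPM in control skin. For both genes 1 AD library was the highest of the 9 and the others were spread through the control range (log2 1.05 ± 0.77 and 0.68 ± 0.74 in AD against control; edgeR adjusted p = 0.395 and 0.578).

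Perilipins other than Plin2 did not pass between AD and control skin. Plin3, the perilipin found on small nascent droplets, had 69.9, 90.4 and 51.6 CPM in La-Cer skin, 95.5, 68.5 and 99.2 CPM in AD skin and 40.2, 40.7 and 92.2 CPM in control skin. Plin4, a perilipin of adipocytes and muscle, had 100.4, 57.9 and 36.3 CPM in La-Cer skin, 73.4, 96.0 and 84.1 CPM in AD skin and 129, 84.7 and 142 CPM in control skin. Plin5, the perilipin of oxidative tissues such as muscle, stayed low at 4.19, 1.29 and 0.323 CPM in La-Cer skin, 3.79, 2.74 and 3.47 CPM in AD skin and 2.33, 0.801 and 5.46 CPM in control skin. The groups overlapped for all 3 of these genes between AD and control. The log2 fold changes of AD against control were 0.60 ± 0.38 for Plin3, -0.49 ± 0.37 for Plin4 and 0.22 ± 0.84 for Plin5. Their edgeR adjusted p were 0.310, 0.413 and 0.882. Whether the perilipins differed from each other was not tested.

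Of the 6 genes for uptake, binding and activation, all had a positive fold change in AD against control skin. In 2 the AD libraries lay wholly above the control libraries, where 16.3% of all genes tested did so. Fabp5 had 1797, 228 and 866 CPM in La-Cer skin, 1222, 2765 and 1988 CPM in AD skin and 448, 683 and 172 CPM in control skin. Every AD library of Fabp5 exceeded every control library, and the La-Cer libraries ranged from the control to the AD level (log2 2.20 ± 0.73 in AD against control, edgeR adjusted p = 0.0850). Acot1, a cytosolic thioesterase that splits fatty acyl-CoA, had 280.2, 82.1 and 126 CPM in La-Cer skin, 128, 178 and 131 CPM in AD skin and 82.8, 69.2 and 37.2 CPM in control skin (log2 1.21 ± 0.46 in AD against control, edgeR adjusted p = 0.118). Fabp5 has processed pseudogenes and Acot1 a close copy in Acot2, and reads could have been shared among them. Cd36 had 114, 33.1 and 45.8 CPM in La-Cer skin, 115, 170.5 and 162 CPM in AD skin and 145, 73.6 and 107 CPM in control skin. The AD and control libraries of Cd36 overlapped, whereas the La-Cer libraries all lay below the AD libraries, with La-Cer library 1 just under AD library 1 (log2 -1.22 ± 0.46 in La-Cer against AD, edgeR adjusted p = 0.206). Fabp3, the binding protein of muscle and heart, Acsl1, the main activating synthetase, and Acot2, a mitochondrial thioesterase, overlapped between all pairs of skin groups.

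**Figure D2:**
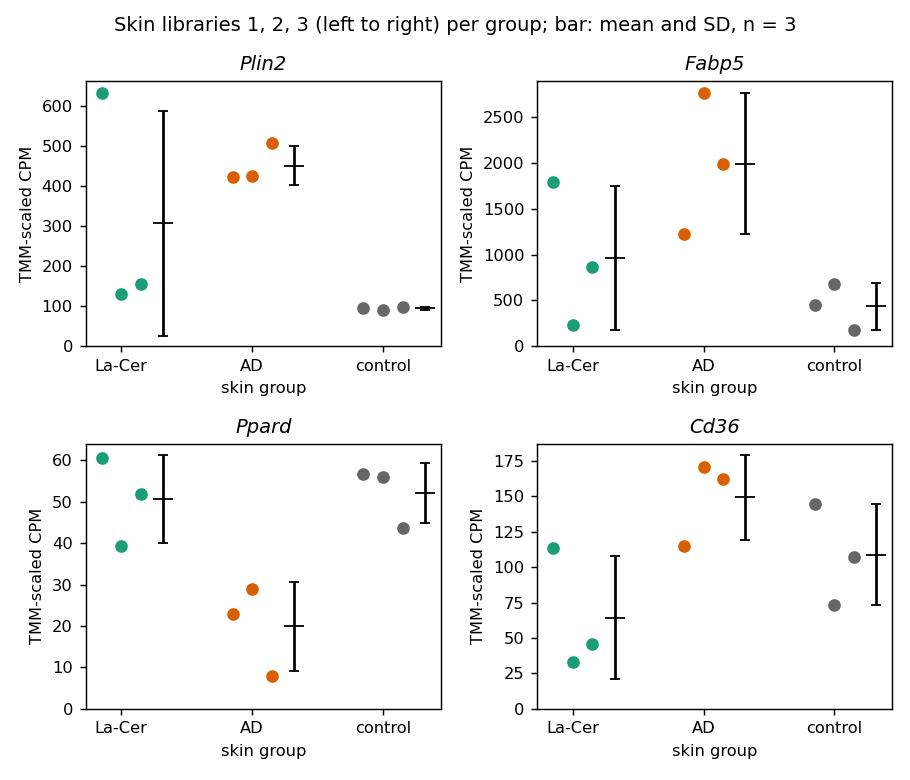
Points give the TMM-scaled CPM of Plin2, Fabp5, Ppard and Cd36 in each of the 3 skin libraries of the La-Cer, AD and control groups, and black bars the group's mean and SD (n = 3). Plin2 and Fabp5 lie higher and Ppard lower in AD than in control skin, and the La-Cer libraries of Plin2 are split, with library 1 at 631 CPM and the others at 131 and 156 CPM.

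The carnitine shuttle comprises a carrier and acyltransferases on both mitochondrial membranes. Slc25a20, the carrier of acylcarnitine across the inner membrane, had 71.3, 39.6 and 46.2 CPM in La-Cer skin, 58.4, 75.1 and 62.2 CPM in AD skin and 31.7, 30.4 and 41.7 CPM in control skin (log2 0.91 ± 0.29 in AD against control, edgeR adjusted p = 0.0775). Cpt1a, the rate-limiting acyltransferase of most tissues, had 65.7, 82.6 and 81.1 CPM in La-Cer skin, 34.0, 50.4 and 78.5 CPM in AD skin and 64.9, 54.0 and 57.7 CPM in control skin. The AD libraries of Slc25a20 lay above the control libraries with no overlap, and those of Cpt1a were spread around them (log2 -0.12 ± 0.31). Cpt2, the inner acyltransferase, was higher in every AD than control library by a small margin (59.6 ± 6.15 CPM in AD and 49.2 ± 3.27 CPM in control skin, log2 0.28 ± 0.25). Cpt1b, the muscle form, ranged from 0.269 to 15.3 CPM over the 9 skin libraries.

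The 12 genes of mitochondrial oxidation were the largest set, and 11 of them had a positive fold change in AD against control skin. In 9 the AD libraries lay wholly above the control libraries, where 16.3% of all genes tested did so. Hadh, the short-chain hydroxyacyl-CoA dehydrogenase, had 399, 173 and 234 CPM in La-Cer skin, 284, 482 and 431 CPM in AD skin and 175, 159 and 183 CPM in control skin (log2 1.21 ± 0.37, edgeR adjusted p = 0.0682). Acads, the short-chain acyl-CoA dehydrogenase of the first step, had 73.7, 40.9 and 49.8 CPM in La-Cer skin, 97.3, 65.2 and 71.8 CPM in AD skin and 44.6, 36.1 and 43.2 CPM in control skin (log2 0.92 ± 0.30, edgeR adjusted p = 0.0781). For both genes the AD libraries stood clear of the control libraries, and La-Cer libraries 2 and 3 lay below every AD library. Acadl, the long-chain dehydrogenase, had 159, 98.3 and 100.02 CPM in La-Cer skin, 177, 239 and 179.97 CPM in AD skin and 109, 113 and 163 CPM in control skin. The La-Cer libraries of Acadl all lay below the AD libraries (log2 -0.74 ± 0.31 in La-Cer against AD, edgeR adjusted p = 0.242).

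Genes for the double bonds of unsaturated fatty acids such as linoleic acid lay in the same direction. Decr1, the dienoyl-CoA reductase, had 156, 41.9 and 41.3 CPM in La-Cer skin, 107, 118 and 132 CPM in AD skin and 41.5, 42.2 and 69.3 CPM in control skin. Eci1, the enoyl-CoA isomerase, had 56.9, 31.5 and 31.1 CPM in La-Cer skin, 118, 62.3 and 58.1 CPM in AD skin and 24.7, 30.8 and 50.3 CPM in control skin. Ech1, the dienoyl-CoA isomerase, had 336, 147 and 116 CPM in La-Cer skin, 337, 273 and 241 CPM in AD skin and 95.9, 117 and 178 CPM in control skin. For all 3 the AD libraries lay above all control libraries, La-Cer libraries 2 and 3 lay below every AD library, and La-Cer library 1 lay in or near the AD range for Ech1 and above it for Decr1. The log2 fold changes between AD and control were 1.22 ± 0.49 for Decr1, 1.17 ± 0.40 for Eci1 and 1.12 ± 0.43 for Ech1, with edgeR adjusted p of 0.134, 0.0908 and 0.117, and that of Eci1 between La-Cer and AD was -0.9996 ± 0.40 (edgeR adjusted p = 0.226).

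The alpha and beta subunits of the trifunctional protein, which catalyses the last 3 steps for long chains, lie head to head on chromosome 5. Hadhb (beta subunit) had 87.1, 40.2 and 42.4 CPM in La-Cer skin, 60.2, 93.2 and 122 CPM in AD skin and 40.7, 32.7 and 53.8 CPM in control skin (log2 1.11 ± 0.39, edgeR adjusted p = 0.0946). Hadha (alpha subunit) had 181 ± 83.2 CPM in AD skin and 209 ± 41.9 CPM in control skin (log2 -0.21 ± 0.38), with AD library 3 the lowest of the 9 at 86.7 CPM. Hadha has 8730 exonic bases, and once the trend on length and GC was taken out its value was 0.29 ± 0.34, on the same side as that of Hadhb (1.12 ± 0.35). The AD and control libraries were apart for Hadhb and overlapped for Hadha. The difference between the subunits was not tested. Their RefSeq starts are 272 bases apart, and the 85 bases between the annotated genes (chr5:30155163-30155247, plus strand, GRCm38.p6) are shown because they lie between the 2 head-to-head genes. All letters are in lower case since no such hexamer was found, and they hold 9 CG pairs.
between Hadha and Hadhb: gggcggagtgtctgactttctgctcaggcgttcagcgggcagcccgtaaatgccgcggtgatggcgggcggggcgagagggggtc

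The remaining oxidation genes of skin showed smaller differences. Acaa2, Acadm, the medium-chain dehydrogenase, and Acadl had AD libraries above all control libraries without passing at an unadjusted p under 0.05, with log2 values of 0.54, 0.88 and 0.63. Acadvl, the very-long-chain dehydrogenase, and Etfdh, which hands electrons to the respiratory chain, overlapped between AD and control. In the peroxisome, Acaa1a, the thiolase, had 156, 88.8 and 106 CPM in La-Cer skin, 159, 115 and 103 CPM in AD skin and 58.2, 67.9 and 73.2 CPM in control skin. All La-Cer and all AD libraries of Acaa1a lay above the control libraries (log2 0.92 ± 0.30 in AD and 0.81 ± 0.30 in La-Cer against control, edgeR adjusted p = 0.0826 and 0.837). Acaa1a shares exonic bases with Myd88 on the opposite strand and has a close copy in Acaa1b, so part of its counts could belong to these genes. Ehhadh, the peroxisomal bifunctional enzyme, stayed between 4.80 and 11.4 CPM in skin. Ucp2 and Ucp3, the uncoupling proteins, overlapped between all pairs of skin groups, and Ucp2 spread from 145 CPM in AD library 3 to 1282 CPM in control library 2.

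Several values moved with these results in skin. Summed markers of the sebaceous gland were 10325, 2488 and 2868 CPM in La-Cer skin, 5512, 12161 and 10993 CPM in AD skin and 2408, 1759 and 1959 CPM in control skin. As for Plin2, all AD libraries lay above all control libraries, and La-Cer library 1 was far above La-Cer libraries 2 and 3. Of the 10 sebaceous markers, 5 passed the edgeR test as higher in AD than in control skin (Awat2, Cidea, Dgat2l6, Elovl3 and Krt79), none of the 10 was lower, and none was at 0 in any skin library. Summed skeletal muscle markers were 24436, 14169 and 3578 CPM in La-Cer skin, 50602, 49614 and 14407 CPM in AD skin and 19221, 19143 and 66984 CPM in control skin, and the muscle genes Cpt1b and Fabp3 were lowest in La-Cer library 3. Of the 15 muscle markers none passed between AD and control skin. Summed white adipocyte markers were 1693 to 4121 CPM in La-Cer skin, 3077 to 5489 CPM in AD skin and 2938 to 4191 CPM in control skin, with 1 of 12, Lep, lower in AD. Summed macrophage markers were 48.1 to 122.004 CPM in La-Cer skin, 156 to 249 CPM in AD skin and 67.4 to 132 CPM in control skin, with 0 of 10 tested called. Summed neutrophil markers were 6.90 to 33.6 CPM in La-Cer skin, 41.7 to 801 CPM in AD skin and 9.02 to 16.6 CPM in control skin, and 2 of 4 tested, S100a8 and S100a9, were higher in AD. Summed brown adipocyte markers were 82.3 to 554 CPM in La-Cer skin, 544 to 652 CPM in AD skin and 63.1 to 209 CPM in control skin, of which Cidea, also a sebaceous marker, was called and Ucp1 was at 0 in some libraries. Suprabasal and stressed keratinocyte markers overlapped as a sum, with 2 of 10, Krt16 and Krt6b, higher in AD. Malat1, a nuclear RNA whose level can move with RNA quality, fell by 2.32 ± 0.49 on the log2 scale in AD against control skin (edgeR adjusted p = 0.0413). The part of these cell types and of RNA quality in the results was not tested.

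Transcript length also moved with the groups in skin. The median of the longest 20% of genes minus that of the shortest 20%, each as a log2 difference from the gene's mean, was -0.23, 0.40 and 0.00 in the La-Cer libraries, -0.86, -0.21 and -0.61 in the AD libraries and 0.70, 0.24 and 0.60 in the control libraries. Among the 36 genes, the 12 with the fewest exonic bases (823 to 2981) all had a positive fold change in AD against control skin, with a median log2 of 0.59, and of the 12 with the most (4414 to 10483) 6 did, with a median of -0.02. With the trend of length and GC removed, 29 of the 36 genes were positive, the median was 0.43 against -0.02 over all genes, and the 12 longest had 9 positive genes and a median of 0.34. Under this setting 0 of the 36 genes and 0.00% of all genes passed edgeR at an adjusted p under 0.05. At an unadjusted p under 0.05, 10 of the 36 were higher and 1 was lower. Of all 16956 genes tested, 2264 were higher and 1914 lower at that threshold.

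Between La-Cer and AD skin 0 of the 36 genes passed, as did 0.00% of all genes tested. With p under 0.05 before adjustment edgeR placed 1 gene higher, Ppard, and 3 lower, Cd36, Eci1 and Acadl, against 9.84% and 9.02% of all genes, and DESeq2 called 0 of the 36 and 5.93% of all genes. Of the 36 genes, 28 had a negative fold change, with a median log2 of -0.34 against 0.02 over all genes. In 4 the La-Cer libraries lay wholly below and in 1 wholly above the AD libraries, against 9.48% and 13.0% of all genes. Without La-Cer library 1, 30 of the 36 had a negative fold change and the median was -0.81. That library also set the value of Plin2, which was -0.56 ± 0.53 with it and -1.65 without it (edgeR adjusted p = 0.585 and 0.113). For Cd36 the values were -1.22 with it and -1.92 without it (edgeR adjusted p = 0.206 and 0.113), and for Fabp5 -1.05 and -1.86 (edgeR adjusted p = 0.436 and 0.210). Without that library Eci1 was at -1.35 and Acadl at -1.001 (edgeR adjusted p = 0.152 and 0.157).

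Between La-Cer and control skin 0 of the 36 genes passed, and again 0.00% of all genes did. The lowest edgeR adjusted p among the 36 was 0.837. At an unadjusted p under 0.05, 4 genes were higher (Plin2, Acot1, Acaa1a and Pparg) and 2 were lower (Ppargc1a and Plin4), against 3.73% and 1.98% of all genes, and DESeq2 called 0 of the 36 and 0.404% of all genes. The La-Cer libraries of 3 genes, Plin2, Acaa1a and Cpt1a, lay wholly above control, where 6.48% of all genes did so, and those of 0 genes wholly below, where 7.05% did. Plin2 had a log2 fold change of 1.70 ± 0.54, and 0.60 without La-Cer library 1.

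**Figure D3:**
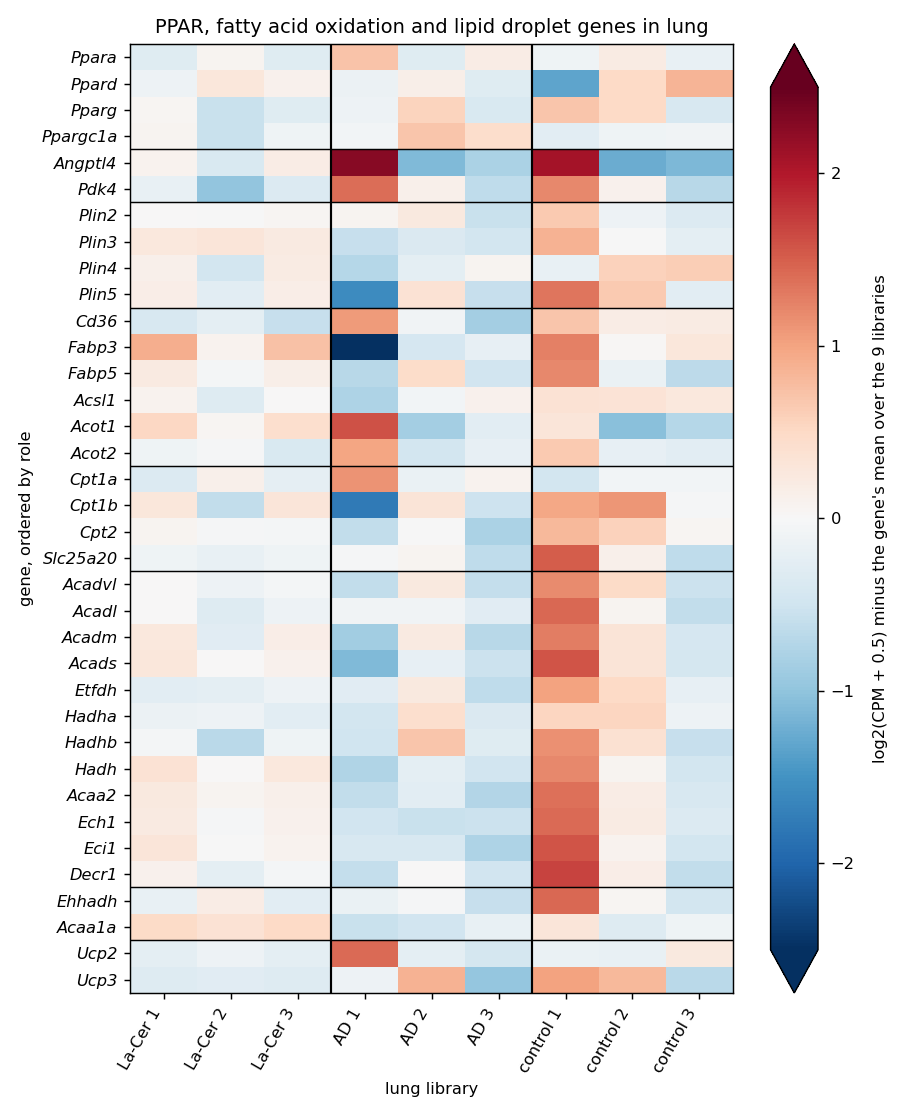
Rows are the 36 genes ordered by role, as for skin, and columns the 9 lung libraries of the La-Cer, AD and control groups. Colour is log2(CPM + 0.5) minus the gene's mean over the 9 lung libraries. Control library 1 is red in nearly all oxidation genes, and AD library 1 is red in Angptl4, Pdk4, Cd36, Cpt1a, Acot1 and Ucp2 and blue in Fabp3, Cpt1b and Plin5.

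In lung, 0 of the 36 genes passed between AD and control mice, against 0.0463% of the 17272 genes tested (0.00579% higher and 0.0405% lower). The fold change was negative in 28 of the 36 genes, with a median log2 of -0.59 against 0.01 over all genes. At an unadjusted p under 0.05 edgeR placed 8 genes lower and 0 higher, where 11.4% of all genes were lower and 9.52% higher, and DESeq2 called 2, Cpt2 and Ech1, as lower, and 8.65% of all genes. In 5 genes the AD libraries lay wholly below and in 1 wholly above the control libraries, against 12.0% and 12.3% of all genes. Without control library 1, 22 of the 36 fold changes were negative and the median was -0.16, and without AD library 1, 34 were negative and the median was -0.65.

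All 12 mitochondrial oxidation genes had a negative fold change in AD against control lung, from -1.31 (Acads) to -0.42 (Hadhb), with a median of -0.93. Without control library 1, 10 of the 12 were negative with a median of -0.33, and Acadl (0.10) and Hadhb (0.09) were positive. Ech1 had 174, 145 and 159 CPM in La-Cer lung, 106, 101 and 102 CPM in AD lung and 396, 171 and 117 CPM in control lung. The AD libraries of Ech1 were almost identical and all lay below control, while the control libraries were far apart (log2 -1.15 ± 0.39, edgeR adjusted p = 0.158; -0.48 without control library 1). Cpt2 had 35.7, 33.3 and 32.8 CPM in La-Cer lung, 22.0, 33.6 and 19.3 CPM in AD lung and 59.8, 50.5 and 35.0 CPM in control lung. Each AD library of Cpt2 was below each control library (log2 -0.96 ± 0.26, edgeR adjusted p = 0.120; -0.76 without control library 1).

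Perilipins and binding proteins in lung differed in how far they rested on control library 1. Plin3 had 86.8, 89.3 and 85.0 CPM in La-Cer lung, 48.6, 56.3 and 52.4 CPM in AD lung and 133, 72.3 and 61.5 CPM in control lung (log2 -0.76 ± 0.28 in AD against control, edgeR adjusted p = 0.179; -0.34 without control library 1). The AD libraries of Plin3 lay below all 6 others. Plin2 had 215, 213 and 222 CPM in La-Cer lung, 225, 255 and 145 CPM in AD lung and 338, 197 and 169.8 CPM in control lung, with overlap between the AD and control libraries (log2 -0.18 ± 0.30, and 0.19 without control library 1). Plin4 had 21.2, 14.0 and 22.3 CPM in La-Cer lung, 11.6, 16.4 and 20.3 CPM in AD lung and 16.9, 28.9 and 30.1 CPM in control lung. Plin5 had 7.75, 5.62 and 7.79 CPM in La-Cer lung, 1.97, 8.91 and 4.41 CPM in AD lung and 18.2, 11.1 and 5.62 CPM in control lung, and both genes overlapped between AD and control. Fabp3 had 175, 98.8 and 155 CPM in La-Cer lung, 14.0, 68.9 and 81.0 CPM in AD lung and 224, 94.5 and 113 CPM in control lung. AD library 1, which was poor in cardiac muscle markers, was the lowest for Fabp3, and the AD libraries lay below all others (log2 -1.40 ± 0.58 in AD against control, edgeR adjusted p = 0.216; -0.91 without control library 1 and -0.94 without AD library 1). Fabp5 was low in lung at 62.8, 52.1 and 59.3 CPM in La-Cer, 33.1, 73.7 and 38.6 CPM in AD and 124, 48.1 and 34.0 CPM in control libraries (log2 -0.50 ± 0.46 in AD against control, and 0.25 without control library 1).

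Receptors in lung stayed within the spread of the libraries. Ppard had 23.1, 30.8 and 27.0 CPM in La-Cer lung, 22.8, 28.0 and 20.3 CPM in AD lung and 9.82, 35.8 and 45.6 CPM in control lung, where control library 1 was the lowest of the 9. Pparg had 12.96, 8.28 and 9.91 CPM in La-Cer lung, 11.3, 18.4 and 9.38 CPM in AD lung and 20.4, 17.7 and 9.30 CPM in control lung. Ppara had 2.18, 2.96 and 2.173 CPM in La-Cer lung, 4.90, 2.18 and 3.28 CPM in AD lung and 2.58, 3.31 and 2.42 CPM in control lung. The 3 receptors overlapped between AD and control. Ppargc1a had 6.85, 4.24 and 6.04 CPM in La-Cer lung, 6.15, 10.9 and 9.04 CPM in AD lung and 5.34, 6.01 and 6.10 CPM in control lung, and was the 1 gene whose AD libraries all lay above control (log2 0.58 ± 0.29, edgeR adjusted p = 0.276).

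The fasting-type targets in lung were set by single libraries. Angptl4 had 31.5, 22.5 and 33.7 CPM in La-Cer lung, 145, 13.4 and 16.7 CPM in AD lung and 126, 12.2 and 13.3 CPM in control lung. Pdk4 had 40.4, 23.0 and 36.6 CPM in La-Cer lung, 123.4, 50.9 and 29.5 CPM in AD lung and 107, 49.7 and 28.6 CPM in control lung. Library 1 of the AD group and library 1 of the control group were high for both genes, and the remaining AD and control libraries overlapped or lay close together. Cpt1a had 84.3, 117 and 90.7 CPM in La-Cer lung, 231, 94.9 and 113 CPM in AD lung and 77.0, 101 and 101 CPM in control lung. Cd36 had 852, 956 and 760.1 CPM in La-Cer lung, 2360.5, 1069 and 629.7 CPM in AD lung and 1839, 1286 and 1310.5 CPM in control lung. AD library 1 was the highest for Cpt1a and Cd36, and La-Cer libraries lay below all control libraries for Cd36 (log2 -0.79 ± 0.43, edgeR adjusted p = 0.999).

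Adipocyte markers were highest in control library 1 of lung, and so were markers of other cell types. Summed alveolar type 2 cell markers were 45924 CPM in that library and 21658 to 33315 CPM in the other lung libraries. Summed alveolar type 1 cell markers were 6353 CPM in it and 1511 to 5488 CPM in the others. It was also the lowest in nuclear-retained RNA, at 773 CPM. Summed brown adipocyte markers (Ucp1, Cox8b, Cidea and Dio2) were 93.5, 21.8 and 77.8 CPM in La-Cer lung, 3.64, 326 and 18.02 CPM in AD lung and 1012, 336 and 26.3 CPM in control lung. Ucp1, the uncoupling protein that defines brown fat, had 29.3, 0.102 and 21.6 CPM in La-Cer lung, 0.418, 237 and 0.169 CPM in AD lung and 625, 221 and 1.45 CPM in control lung. Summed white adipocyte markers were 833, 434 and 788 CPM in La-Cer lung, 199.9, 775 and 199 CPM in AD lung and 3669, 1058 and 573 CPM in control lung. None of the 4 brown or 12 white adipocyte markers passed between AD and control lung, and none was at 0 in any lung library. Summed nuclear-retained RNA, a sign of RNA or library quality, was 1379 to 2400 CPM in La-Cer lung, 2983 to 5668 CPM in AD lung and 773 to 2555 CPM in control lung, so that AD lay wholly above both other groups, with 0 of 4 genes called between AD and control. Summed macrophage markers were 289 to 338 CPM in La-Cer lung, 387 to 486 CPM in AD lung and 311 to 352 CPM in control lung, with 0 of 11 called. The part of these values in the levels of the 36 genes was not tested. Without the 3 libraries highest in brown adipocyte markers (control 1, control 2 and AD 2), 18 of the 36 fold changes between AD and control were negative and the median was 0.01. This set was chosen after seeing the data and leaves 1 control library, which is assumed to vary like the other groups. The libraries left out were also the highest of their groups in the 36 genes. Their median log2 levels relative to the gene's lung mean were 1.01, 0.18 and -0.05. Those of control 3, AD 1 and AD 3 were -0.34, -0.44 and -0.48. The choice of libraries by itself thus lowers the control level of these genes, and says nothing on the part of the markers.

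**Figure D4:**
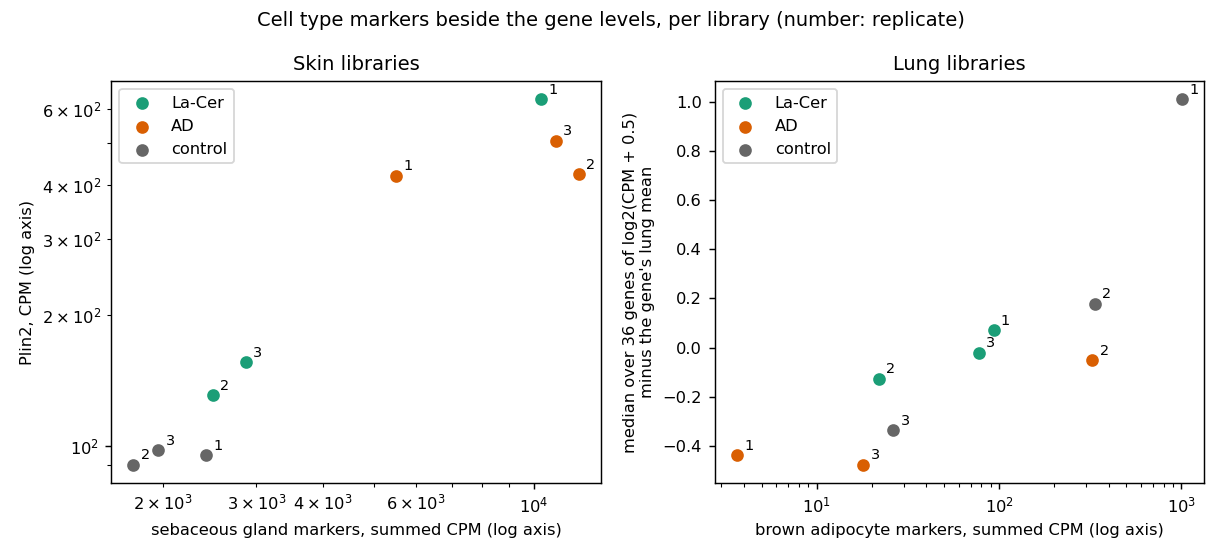
Left, Plin2 (CPM, log axis) against summed sebaceous gland markers (CPM, log axis) in the 9 skin libraries. Right, the median over the 36 genes of log2(CPM + 0.5) minus the gene's lung mean against summed brown adipocyte markers (CPM, log axis) in the 9 lung libraries. Colours stand for the La-Cer, AD and control groups and numbers for the library. Skin La-Cer library 1 lies within the marker range of the AD libraries and above them in Plin2, and lung control library 1 lies highest on both axes.

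Between La-Cer and AD lung 0 of the 36 genes passed, where 1.91% of all genes did (0.845% higher and 1.07% lower). In 8 genes the La-Cer libraries lay wholly above the AD libraries and in 0 wholly below, against 22.5% and 22.1% of all genes. The median log2 fold change was 0.16, against -0.03 over all genes, and 22 of the 36 were positive. At an unadjusted p under 0.05 edgeR placed 3 higher and 0 lower, against 12.3% and 13.1% of all genes. Acaa1a had 141, 131 and 144 CPM in La-Cer lung, 68.4, 72.6 and 88.7 CPM in AD lung and 124, 81.1 and 93.2 CPM in control lung. The La-Cer libraries of Acaa1a lay above all AD and all control libraries (log2 0.85 ± 0.21 in La-Cer against AD, edgeR adjusted p = 0.0636). The other genes were Plin3 (log2 0.73 ± 0.27) and Fabp3 (1.39 ± 0.58), with edgeR adjusted p of 0.141 and 0.172.

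With the 6 La-Cer and AD libraries fitted alone, 6 of the 36 genes passed edgeR (Plin3, Acaa1a, Eci1, Hadh, Acaa2 and Ech1, all higher in La-Cer), where 23.2% of all genes did. In the fit of all 9 libraries, removing the trend on length and GC took Eci1 from 0.66 to 0.22 on the log2 scale. Acaa2 went from 0.67 to 0.13 and Ech1 from 0.63 to 0.22. Acaa1a went from 0.85 to 0.70, Plin3 from 0.73 to 0.58 and Hadh from 0.71 to 0.68. Without control and AD libraries 1 together 9 passed, where 28.5% of all genes did, and without the 3 lung libraries highest in brown adipocyte markers 11 passed, where 17.0% did. DESeq2 called 1, Acaa1a, and 14.5% of all genes. Transcript length moved with the La-Cer and AD groups in lung too. The longest 20% minus the shortest 20% of genes was -0.40, -0.11 and -0.29 in the La-Cer libraries. It was 0.65, 0.38 and 0.32 in the AD and -1.06, 0.24 and 0.22 in the control libraries. Of the 12 genes with the fewest exonic bases, 10 were higher in La-Cer than AD (median log2 0.46). With the trend removed 7 were (median 0.08), and the part of length was not tested. Summed cardiac muscle markers were 3698, 1929.8 and 3521 CPM in La-Cer lung and 146, 1130.4 and 2868 CPM in AD lung, and 3 of 15 skeletal muscle markers passed as higher in La-Cer; their part was not tested.

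Between La-Cer and control lung 0 of the 36 genes passed, against 0.0347% of all genes. With the replicate number as a block, 0 of the 36 and 0 of all genes passed edgeR. The fold change was negative in 33 of the 36 genes, with a median log2 of -0.52 against -0.05 over all genes, but without control library 1 it was negative in 18 with a median of 0.02. At an unadjusted p under 0.05 edgeR placed 1 gene higher (Acaa1a, log2 0.48 ± 0.21) and 1 lower (Etfdh, log2 -0.73 ± 0.32), against 1.79% and 1.38% of all genes, and DESeq2 called 0 of the 36 and 0.127% of all genes. In 1 gene, Acaa1a, the La-Cer libraries lay wholly above control and in 3 wholly below (Hadha, Cd36 and Acsl1), against 5.64% and 5.69% of all genes. Once the trend on length and GC was taken out, 0 of the 36 genes passed edgeR in La-Cer against AD, AD against control or La-Cer against control lung, where 0.730%, 0.457% and 0.0289% of all genes did.

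The effect of AD differed between the tissues for 11 of the 36 genes, tested as the fold change in skin minus the fold change in lung over all 18 libraries. All 11 differences were positive, and among all 19129 genes 14.7% passed in either direction and 9.44% with a positive difference. The median difference over the 36 genes was 1.35 on the log2 scale, against 0.03 over all genes, and 31 were positive. The test treats all libraries as independent. The labels do not say which libraries came from the same mouse, but their codes share numbers across tissues for 7 pairs of libraries (2 AD, 2 control and 3 La-Cer; in AD the letters of the codes differ between tissues). With these pairs as a block, an alternative chosen after seeing the data that leaves 4 residual degrees of freedom and draws on 2 AD and 2 control pairs, 2 of the 36 genes passed, where 4.55% of all genes did. They were Eci1 (2.09 ± 0.44, edgeR adjusted p = 0.0316) and Plin3 (1.65 ± 0.38, edgeR adjusted p = 0.0380), and the 10 others of the 11 kept a positive difference, between 0.99 (Cpt2) and 2.34 (Plin2), with edgeR adjusted p of 0.0503 to 0.436.

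The 11 genes covered droplet coating, binding, import and oxidation. Hadh differed by 2.22 ± 0.53, with a fold change of 1.21 in skin and -0.93 in lung (edgeR adjusted p = 0.0157). Acads differed by 2.32 ± 0.56, Ech1 by 2.36 ± 0.59 and Eci1 by 2.46 ± 0.63 (edgeR adjusted p = 0.0158, 0.0183 and 0.0197). Plin2 differed by 2.51 ± 0.63 (edgeR adjusted p = 0.0186), and in it the skin value (2.25) carried the difference while the lung value was -0.18. Cpt2 and Acaa2 were the reverse, with -0.96 and -1.12 in lung and 0.28 and 0.54 in skin, and differences of 1.32 ± 0.36 and 1.75 ± 0.50 (edgeR adjusted p = 0.0239 and 0.0292). The other 4 were Acaa1a at 1.38 ± 0.36, Decr1 at 2.37 ± 0.73, Slc25a20 at 1.79 ± 0.56 and Fabp5 at 2.78 ± 0.90, with edgeR adjusted p of 0.0213, 0.0389, 0.0425 and 0.0463.

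By role, all 12 mitochondrial oxidation genes had a positive difference, with a median of 1.82 and 10 at an unadjusted p under 0.05, where 18.1% of all genes had such a positive difference and 14.4% a negative one. The 4 receptor and coactivator genes had 1 positive difference, that of Pparg (1.57 ± 0.66, edgeR adjusted p = 0.111), and Ppargc1a differed by -1.38 ± 0.60 (edgeR adjusted p = 0.124). Hadh, Plin2 and Acads passed whichever 1 of the 12 AD and control libraries was left out. Without lung control library 1 the count was 5 (Hadh, Plin2, Acads, Acaa1a and Ech1), where 7.14% of all genes passed, and without skin control library 1 it was 3, where 5.42% did. Once the trend on length and GC was taken out, 10 of the 36 passed, where 11.7% of all genes did. Of the 11, 8 passed there too, Fabp5, Cpt2 and Acaa2 did not, and Hadhb and Acsl1 passed in addition. Without the 3 lung libraries highest in brown adipocyte markers, the differences of the 11 genes lay between 0.65 (Slc25a20) and 2.22 (Plin2). This set was chosen after seeing the data and leaves 1 lung control library. The libraries left out were also the highest of their groups in the 36 genes, so this fit says nothing on the part of the markers.

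**Figure D5:**
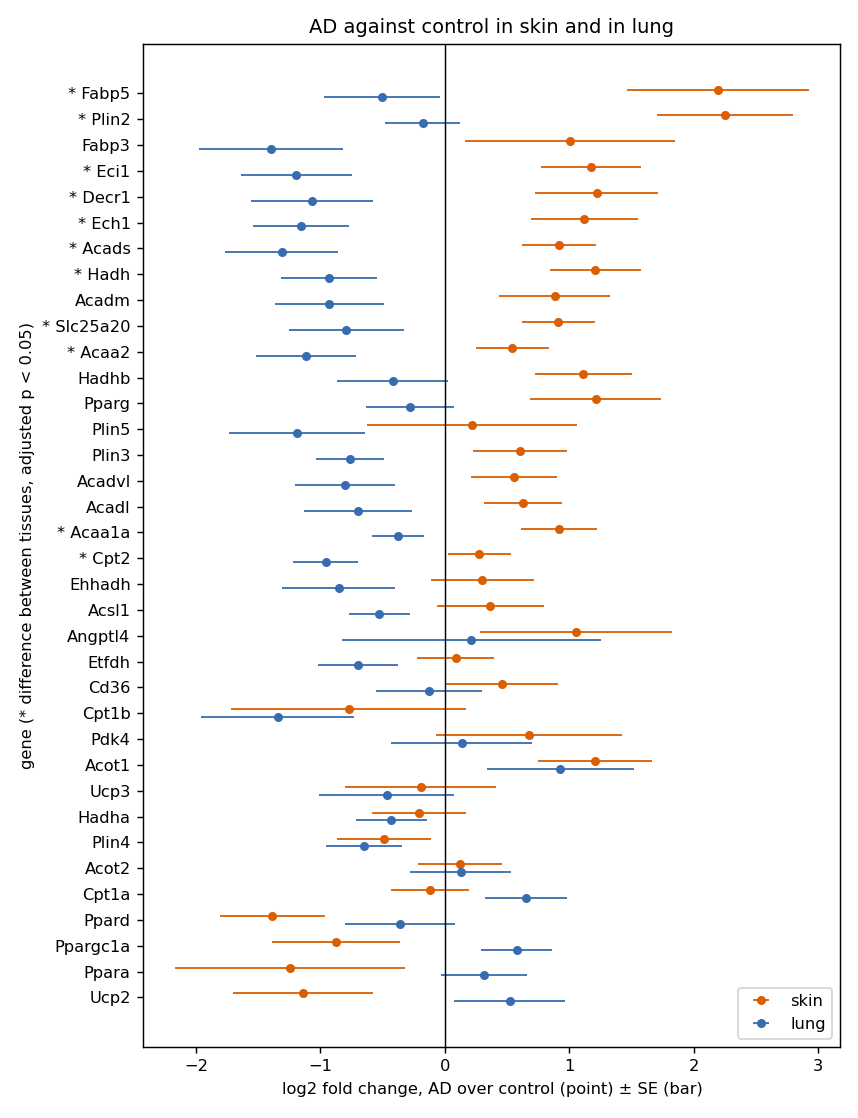
Points give the log2 fold change of AD over control for each of the 36 genes, in skin (orange) and in lung (blue), with bars for the SE. Genes are ordered by the difference between the tissues, and a star marks the 11 genes whose difference passed at an adjusted p under 0.05. The skin points of the mitochondrial oxidation genes lie right of zero, except that of Hadha. Their lung points all lie left of it.

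For the effect of La-Cer against AD, 0 of the 36 genes differed between skin and lung at an adjusted p under 0.05, where 1.62% of all genes did. At an unadjusted p under 0.05 edgeR placed 2 above and 7 below zero, against 11.1% and 13.4% of all genes, and DESeq2 called 2 of the 36 and 10.9% of all genes. The difference with the lowest edgeR adjusted p was that of Fabp3, at -3.29 ± 1.09 (adjusted p = 0.0909), from -1.82 in skin and 1.39 in lung.

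Other genes of the same pathways, listed by function, were described in the same fits. In AD against control skin, 2 of 23 tested genes of mitochondrial fatty acid oxidation were higher and 1 lower, 1 of 18 peroxisomal genes was higher, and 1 of 20 droplet and lipolysis genes was higher. Among all genes tested 6.86% passed in this comparison, 3.42% as higher and 3.44% as lower. Etfb, the beta subunit of the electron transfer flavoprotein, had 159.5 ± 36.6 CPM in AD and 59.5 ± 20.5 CPM in control skin (log2 1.42 ± 0.37, edgeR adjusted p = 0.0480). Acot13, a mitochondrial thioesterase, rose by 1.10 ± 0.27 and Slc25a42, a carrier of coenzyme A, fell by 1.29 ± 0.33 on the log2 scale (edgeR adjusted p = 0.0457 and 0.0475). Acox2, a peroxisomal oxidase of branched chains and bile acid precursors, had 22.9 ± 16.9 CPM in AD and 2.21 ± 0.572 CPM in control skin (log2 3.37 ± 0.79, edgeR adjusted p = 0.0430). Cidea, a droplet fusion protein of sebaceous and brown fat cells that is also in the marker lists, had 250 ± 74.8 CPM in AD and 29.3 ± 5.21 CPM in control skin (log2 3.09 ± 0.72, edgeR adjusted p = 0.0430).

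Partners and coregulators of the receptors (0 of 13), further PPAR targets (0 of 15), further uptake genes (0 of 14) and heat production genes (0 of 2) held no called gene in that comparison. The median log2 of these 4 lists was -0.41, 0.42, 0.44 and 1.03, in the same order. At an unadjusted p under 0.05 edgeR placed 2, 3, 4 and 1 of their genes higher and 4, 0, 0 and 0 lower. Among all genes tested 14.3% were higher and 14.6% lower. The genes named next were picked for their low p and need not be typical of their lists. They were the corepressor Ncor1 (log2 -1.01 ± 0.30), Aqp3 (1.33 ± 0.47), a glycerol channel, and Slc27a4 (1.72 ± 0.47), a fatty acid transporter of the epidermis. Acsl4 (1.92 ± 0.57), a synthetase for polyunsaturated fatty acids, and Cox8b (2.13 ± 0.83) were the others. Their edgeR adjusted p ran from 0.0510 (Slc27a4) to 0.125 (Cox8b). In the other 5 comparisons within a tissue none of these 7 lists held a called gene. In lung the lowest p among them was that of G0s2, an inhibitor of lipolysis, which had 72.3, 84.8 and 71.2 CPM in La-Cer lung, 18.3, 21.3 and 19.8 CPM in AD lung and 205, 70.4 and 45.4 CPM in control lung. Its AD libraries lay below all others (log2 -2.44 ± 0.48 in AD against control and 1.94 ± 0.47 in La-Cer against AD, edgeR adjusted p = 0.0767 and 0.0631).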

How the data were processed

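The authors deposited 1 table per tissue with raw read counts per Ensembl gene and FPKM for 9 libraries, per the file headers. The FPKM equal the count divided by exonic size and column total to within 0.00500, so they served only as a per-length level, and were not tested. Tools listed in the submitters' processing notes were cutadapt 1.9.1 and bcl2fastq 2.17.1.14, with the build GRCm38. Which aligner and counting tool were run, and whether libraries kept strand, is not given in the sources used here. Reads of antisense, overlapping (9 of the 36 genes share exonic bases with another gene) and near-identical genes could therefore not be told apart.

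The deposited counts entered edgeR (version 4.0.16, R 4.3.3; TMM, filterByExpr, robust quasi-likelihood fit over the 9 libraries of a tissue, or all 18 for differences between tissues), with Benjamini-Hochberg adjustment over all genes tested and a call at adjusted p under 0.05. Levels are TMM-scaled CPM. The fit was also run on simulated counts. These held no length trend and no library set apart from its group, so that run cannot vouch for calls in these data. Alternatives were DESeq2 1.42.0, RLE factors, no filter, 6 libraries only, a replicate block, a per-library trend on length and GC removed, libraries of the tissues paired by code number, and libraries left out. No label pairs libraries by replicate number. Same-numbered libraries deviated together in every pair in La-Cer against control lung only, which does not show that they are paired. The genes, the pathway and marker lists and the rule for which genes are given in every library (receptors, Ppargc1a, perilipins, Angptl4, Pdk4, Cpt1a, Cd36, Fabp5, and any gene called or with an unadjusted p under 0.05 and no overlap) were chosen with earlier results of these data known. Promoters are from a RefSeq table (GRCm38.p6), with 31 of the 36 genes matched.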

Additional observations from a re-analysis of the deposited data

Results flagged for a closer look

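The effect of AD against control differed between skin and lung, by a test of the difference itself, for 11 of the 36 genes. The differences (skin minus lung, log2) were 2.51 for Plin2, 2.78 for Fabp5, 1.32 for Cpt2, 1.79 for Slc25a20, 2.32 for Acads, 2.22 for Hadh, 1.38 for Acaa1a, 1.75 for Acaa2, 2.36 for Ech1, 2.46 for Eci1 and 2.37 for Decr1. Leaving out 1 AD or control library at a time, Hadh, Plin2 and Acads passed edgeR in 12 of 12 fits, Ech1 in 11, Eci1 and Acaa1a in 10, Cpt2 in 8, Acaa2 in 7, Fabp5 in 5, and Decr1 and Slc25a20 in 3. With libraries of the tissues paired by the number in their codes, Eci1 passed and the other 10 did not. Summed brown adipocyte markers, 1012, 336 and 26.3 CPM in control lung against 3.64, 326 and 18.02 CPM in AD lung, and summed sebaceous gland markers, 5512, 12161 and 10993 CPM in AD skin against 2408, 1759 and 1959 CPM in control skin, moved with these differences, and their part was not tested.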

How the results depend on the processing

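The call of Plin2 in AD against control skin was lost under the replicate block, with the length and GC trend removed and without any 1 AD or control library, and the cause was not tested. Counts of the 36 genes called follow, with those over all genes after them. Where only the count of the 36 genes is given, the count over all genes under that setting is not reported here. Such a count alone is not a result about these genes. In AD against control skin (1 and 1163) they were 9 and 3095 with DESeq2, 3 and 1908 with no filter on low counts, 0 and 0 with the replicate block, 0 and 0 with the trend removed, 2 without La-Cer library 1 and control library 3 (chosen after seeing the data), 496 over all genes with 6 libraries only, and 0 and 0 to 535 leaving out 1 library. In La-Cer against AD skin (0 and 0) they were 1 and 449 with no filter. All genes there gave 984 with DESeq2, 1 with 6 libraries only and 0 to 1 leaving out 1 library. In La-Cer against control skin (0 and 0), all genes gave 67 with DESeq2 and 7 with no filter.

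In AD against control lung (0 and 8) they were 2 and 1492 with DESeq2 and 1 and 2158 without control and AD libraries 1 (Ppard, lower). All genes there gave 20 with RLE, 134 with no filter, 0 with 6 libraries, 0 with the replicate block, 79 with the trend removed, 0 without the 3 libraries highest in brown adipocyte markers and 0 to 994 leaving out 1 library, with 994 without control library 1. In La-Cer against AD lung (0 and 330) they were 1 and 2502 with DESeq2, 6 and 4011 with 6 libraries, 11 and 2930 without the 3 brown marker libraries and 9 and 4919 without control and AD libraries 1. All genes there gave 12 with the replicate block, 126 with the trend removed and 0 to 16 leaving out 1 library. In La-Cer against control lung (0 and 6) they were 3 and 2123 without control and AD libraries 1 (Acaa1a, Angptl4 and Acot1, higher), and all genes gave 22 with DESeq2, 11 with no filter, 0 with 6 libraries, 0 with the replicate block, 0 without the brown marker libraries and 0 to 21 leaving out 1 library.

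For the AD effect in skin minus lung (11 and 2819) they were 0 and 15 without the brown marker libraries, 3 to 16 and 1036 to 3278 leaving out 1 library, 8 for the 36 genes with the replicate block, and 2 and 870 with tissues paired by code number. For the La-Cer effect in skin minus lung (0 and 309) they were 2 and 2042 with DESeq2, 1 and 920 without the brown marker libraries, 4 and 1714 with tissues paired by code number (Ppard positive; Plin3, Acads and Eci1 negative), and 0 to 2 and 6 to 885 leaving out 1 library. All genes there gave 799 with no filter and 42 with the replicate block. The pairing by code number and the sets without control and AD libraries 1, and without the brown marker libraries, were chosen after seeing the data, and a group left with 1 library is assumed to vary like the others. Same-numbered libraries deviated together in La-Cer against control lung (r of 0.36, 0.21 and 0.20), but not in every pair of the other comparisons (r of -0.77 to 0.28 in skin and down to -0.24 in lung). Libraries with different numbers reached r of 0.33 in lung and 0.66 in skin, so these values do not show a pairing. The replicate block changed no call of the 36 genes within a tissue other than that of Plin2. For results called, or with an unadjusted p under 0.05 and no overlap in that comparison, 0 of 568 values changed sign, 77 lost and 23 gained a call. This choice favours values with a stable sign. Among the remaining results of the 36 genes, 231 of 2557 values changed sign and 19 others gained a call.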
